A study of Mus musculus with 4 samples.

Results

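Basement membrane and extracellular matrix genes were followed in mouse embryonic stem cells (mESCs) with and without the clock protein Bmal1. The set holds 41 genes picked by symbol, out of 37310 genes in the expression table, and all 41 were found in it. It comprises 5 fibrillar collagen chains, 6 basement membrane and microfibrillar collagen chains, 7 laminin chains, 7 linkers and other matrix proteins, 8 collagen-processing enzymes and 8 integrins. The measurement was mRNA-seq of JM8 mESCs, a line of the C57BL6/N strain, with 2 libraries from wild-type cells and 2 from Bmal1-/- cells. The Bmal1-/- cells were 1 clonal line made with CRISPR/Cas9, with a frame-shifting indel in each allele, and any other way in which the lines differ cannot be told apart from the genotype. All cells grew without feeders on gelatin in 2i + LIF medium. This holds LIF, the Mek inhibitor PD0325901 (1 µM) and the Gsk3 inhibitor CHIR99021 (3 µM).

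The basement membrane is a thin sheet of matrix that cells lay down at their base. Laminin heterotrimers of an alpha, a beta and a gamma chain form one network, type IV collagen trimers form another, and nidogens and the heparan sulfate proteoglycan perlecan tie them together. Collagen chains are hydroxylated on prolines and lysines in the endoplasmic reticulum and folded with the chaperone Hsp47 before secretion, and integrins and dystroglycan on the cell surface bind the assembled matrix. In the early embryo the first basement membranes form around the epiblast and under the primitive and parietal endoderm, and laminin and fibronectin are common substrates for the growth of embryonic stem cells.

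Values are read counts per gene divided by a library scaling factor (trimmed mean of M values, TMM), as deposited, and differences are given as the log2FC, the log2 fold change of Bmal1-/- over wild-type on the scale of log2(value + 1), with its standard error (SE). They were tested with limma across the genes whose mean reached 10. A gene is called higher or lower here with a Benjamini-Hochberg adjusted p-value under 0.05 over all 14510 genes tested. The 4 libraries held between 21504265 and 23329034 reads on genes, and 3 reads corresponded to values of 2.82 to 3.19. Bmal1 (listed as Arntl) had values of 678 and 733 in wild-type and 556 and 590 in Bmal1-/- libraries (log2FC −0.30, adjusted p = 0.0011 from limma). In the paper, Bmal1-/- cells had no Bmal1 mRNA detected by RT-qPCR and no detectable Bmal1 protein by Western blot. A frame-shifted mRNA can still be counted over the whole gene, so the level in these libraries does not check the labels. The cultures are given as biological replicates of each line, and p-values measure the spread between such cultures. In bulk RNA, a change in the share of cells that express a gene and a change in mRNA per cell cannot be told apart. As a check of cell identity, the ESC markers Pou5f1 and Nanog were abundant in every library, with 26483 to 29164 and 22379 to 27127, respectively. Of 11 ESC markers tested, 4 were higher (36.4%) and 7 were lower (63.6%), where 24% and 28.6% of all genes tested were. Nanog was among the higher (log2FC 0.25) and Pou5f1 among the lower (−0.13), and Utf1 fell most (−0.89).

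Most matrix genes that could be tested were higher in Bmal1-/- cells. Of the 41 genes, 33 passed the filter on low values, and among these 20 were higher, 5 were lower and 8 did not pass the test. Across all genes tested, 24% were higher and 28.6% were lower. The median log2FC of the 33 genes was 0.37, beside −0.03 for all genes tested. With a change of more than 2-fold required as well, 7 genes were higher (Col4a1, Col4a2, Col5a1, Lama4, Lamb1, P4ha2 and Itgb3) and 1 was lower (Itga1), where 5.75% and 1.45% of all genes tested were higher and lower by this rule. In 20 of the 33 genes both Bmal1-/- libraries lay above both wild-type libraries, and in 6 both lay below, compared with 34.6% and 41.4% of all genes tested. The counts were much alike in tests of the recovered reads. In edgeR 21 were higher and 5 lower, where 26.3% and 26.6% of all genes were, and 7 and 1 also passed 2-fold, where 6.11% and 1.41% of all genes did. In DESeq2 20 were higher and 3 lower, where 18.5% and 17.5% of all genes were, and 7 and 0 also passed 2-fold, where 4.9% and 1.04% of all genes did. Abundant genes were called more often than scarce ones, and 29 of the genes had a mean of at least 100. Among all genes at that level, 24.2% were higher and 36.8% lower, while 19 of these 29 matrix genes were higher and 4 lower. The matrix genes together took 0.490% and 0.461% of the reads on genes in wild-type cells and 0.627% and 0.608% in Bmal1-/- libraries.

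**Figure D1:**
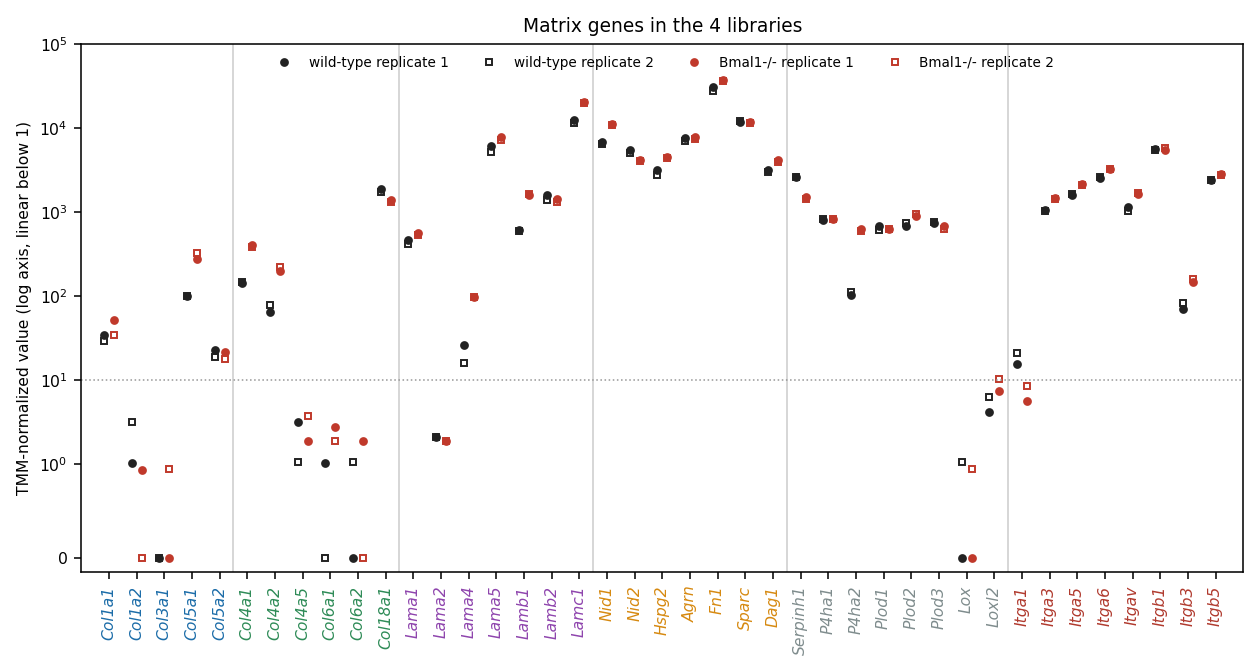
TMM-normalized values (vertical axis, logarithmic above 1 and linear below) of the 41 matrix genes in the 2 wild-type (black) and 2 Bmal1-/- (red) libraries, circles for replicate 1 and squares for replicate 2. Gene names are coloured by group, and the dotted line is at a value of 10. Values run from 0 for Col3a1 in wild-type cells to 37155 for Fn1, and among genes above the dotted line P4ha2 and Lama4 show the widest gaps between black and red.

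Type IV collagen is the network-forming collagen of every basement membrane, and its common form is a trimer of Col4a1 and Col4a2 chains. Both genes rose in Bmal1-/- cells, 2.73-fold and 2.96-fold. Col4a1 (ENSMUSG00000031502, chromosome 8 from 11198423 to 11312826 on the minus strand in mm9) had values of 143 and 147 in wild-type and 410 and 382 in Bmal1-/- libraries, a log2FC of 1.44 (SE 0.10, adjusted p = 2.2e-10 from limma). Col4a2 (ENSMUSG00000031503, chromosome 8 from 11312805 to 11449287 on the plus strand) had 65.3 and 78.6 in wild-type and 202 and 224 in Bmal1-/- libraries, a log2FC of 1.56 (SE 0.14, adjusted p = 1.4e-08 from limma). In both genes the lower Bmal1-/- library was well above the higher wild-type library. The 2 genes are transcribed away from each other, and their annotated transcripts overlap by 22 bases. This stretch is shown because both genes start in it. It lies at chr8:11312805-11312826 in mm9, is given here for the plus strand, and has the letters GGGCGG, the core of a GC box, in capitals.

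Col4a1 and Col4a2 shared stretch: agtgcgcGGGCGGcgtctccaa

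Per kb of exon, Col4a1 stood at 2.13 and 1.81 times Col4a2 in wild-type cells and at 1.97 and 1.66 times in Bmal1-/- libraries. The ratio of the 2 chains thus had overlapping values in the 2 genotypes while both levels rose. The 787 genes tested on chromosome 8 had a median log2FC of −0.06. Col4a5, a chain of the X-linked type IV collagens, was near the limit of counting, with 1.06 to 3.81 in all libraries.

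Col18a1, a basement membrane collagen with heparan sulfate chains whose C-terminal fragment is endostatin, went the other way. It was the most abundant collagen of the set per kb and fell from 1906 and 1745 in wild-type to 1377 and 1301 in Bmal1-/- libraries, a log2FC of −0.45 (SE 0.05, adjusted p = 1.1e-06 from limma). Per kb of exon, Col4a1 reached 0.0774 and 0.0865 of the Col18a1 level in wild-type cells and 0.306 and 0.303 in Bmal1-/- libraries. Col6a1 and Col6a2, chains of the beaded-filament collagen VI, were at or under 3 reads in every library and were not tested.

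Of the fibrillar collagens, which build the fibres of connective tissue, Col5a1 alone was called among the 3 tested. Collagen V is a minor fibrillar type that starts the assembly of collagen I fibrils. Col5a1 (ENSMUSG00000026837, chromosome 2 from 27741945 to 27895034 in mm9) had values of 101 and 102 in wild-type cells and 277 and 323 in Bmal1-/- libraries, a log2FC of 1.55 (SE 0.12, adjusted p = 1.1e-09 from limma). Its partner chain Col5a2 had 23.2 and 19.1 in wild-type and 21.6 and 18.1 in Bmal1-/- libraries, so that the genotypes overlapped. The log2FC of Col5a2 was −0.09, with a 95% interval from −0.727 to 0.557 that at this depth leaves room for a change in either direction. The ratio of Col5a1 to Col5a2 per kb was 4.93 and 6.02 in wild-type cells, and 14.5 and 20.2 in Bmal1-/- cells. Col1a1, the main chain of collagen I, had 34.8 and 29.7 in wild-type and 52.6 and 34.3 in Bmal1-/- libraries (log2FC 0.39, adjusted p = 0.20 from limma). Its 95% interval, from −0.132 to 0.916, leaves room for a rise. The remaining chains of the major fibrils were nearly silent, with Col1a2 at 0 to 3.19 and Col3a1 at 0 to 0.954.

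Of the 7 laminin chains 6 were tested and 5 were higher (83.3%, beside 24% of all genes tested). None was lower, beside 28.6% of all genes tested, and the median log2FC was 0.60. The single gamma chain of the set, Lamc1, is part of most laminins and was the most abundant chain per kb in both genotypes. It rose from 12358 and 11408 to 20548 and 19852, a log2FC of 0.77 (SE 0.04, adjusted p = 4.5e-12 from limma). Per kb it lay at percentile 95.2 of the genes tested.

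Of the beta chains, Lamb1 was called higher and Lamb2 was not called. Lamb1 (ENSMUSG00000002900, chromosome 12 from 31950099 to 32014509 in mm9), the beta chain of laminin-111 and other early embryonic laminins, had 608 and 603 in wild-type and 1598 and 1648 in Bmal1-/- libraries, a log2FC of 1.42 (SE 0.06, adjusted p = 3.6e-14 from limma). Lamb2, the beta chain of synaptic and kidney laminins, had 1576 and 1404 in wild-type and 1434 and 1326 in Bmal1-/- libraries, with overlapping groups and a log2FC of −0.11 (95% interval −0.234 to 0.0157, adjusted p = 0.13 from limma). With wild-type replicate 2 left out, Lamb2 was called lower (log2FC −0.19, adjusted p = 0.0051 from limma). Lamb1 rose from 0.219 and 0.244 of the Lamb2 level per kb in wild-type libraries to 0.632 and 0.705 in Bmal1-/- libraries. Against Lamc1, Lamb2 fell from 0.188 and 0.181 to 0.103 and 0.0983. Lamb1 and Lamb2 together made 0.229 and 0.225 of the Lamc1 level in wild-type and 0.168 in both Bmal1-/- libraries, so that the gamma chain mRNA outran the sum of the beta chains.

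Among the alpha chains, which carry the cell-binding domains, Lama5 was by far the most abundant and Lama4 changed most. Lama5 had 6169 and 5156 in wild-type and 7882 and 7284 in Bmal1-/- libraries (log2FC 0.43, SE 0.06, adjusted p = 4.6e-06 from limma). Lama1, the alpha chain of the first embryonic laminin, rose from 468 and 422 to 566 and 535 (log2FC 0.31, SE 0.08, adjusted p = 0.0021 from limma). Both missed the threshold without the trend of the variance over the mean (adjusted p = 0.062 for Lama5 and 0.055 for Lama1) and without a filter on low values (0.052 and 0.051). Lama4 (ENSMUSG00000019846), an alpha chain typical of vessels and mesenchymal tissue, had 26.3 and 15.9 in wild-type and 96.8 and 99.2 in Bmal1-/- libraries. Its log2FC was 2.20 (SE 0.24, adjusted p = 1.7e-07 from limma), and 1.81 with a pseudocount of 10 was its lowest value among the alternatives that tested it. Even so, Lama4 in Bmal1-/- cells reached only 8.12 per kb, beside 665 for Lama5. Lama2, the muscle laminin alpha chain, was at 2 reads in each of the 4 libraries. The 4 alpha chains together came to 0.397 and 0.361 of Lamc1 per kb in wild-type and 0.305 and 0.293 in Bmal1-/- libraries.

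**Figure D2:**
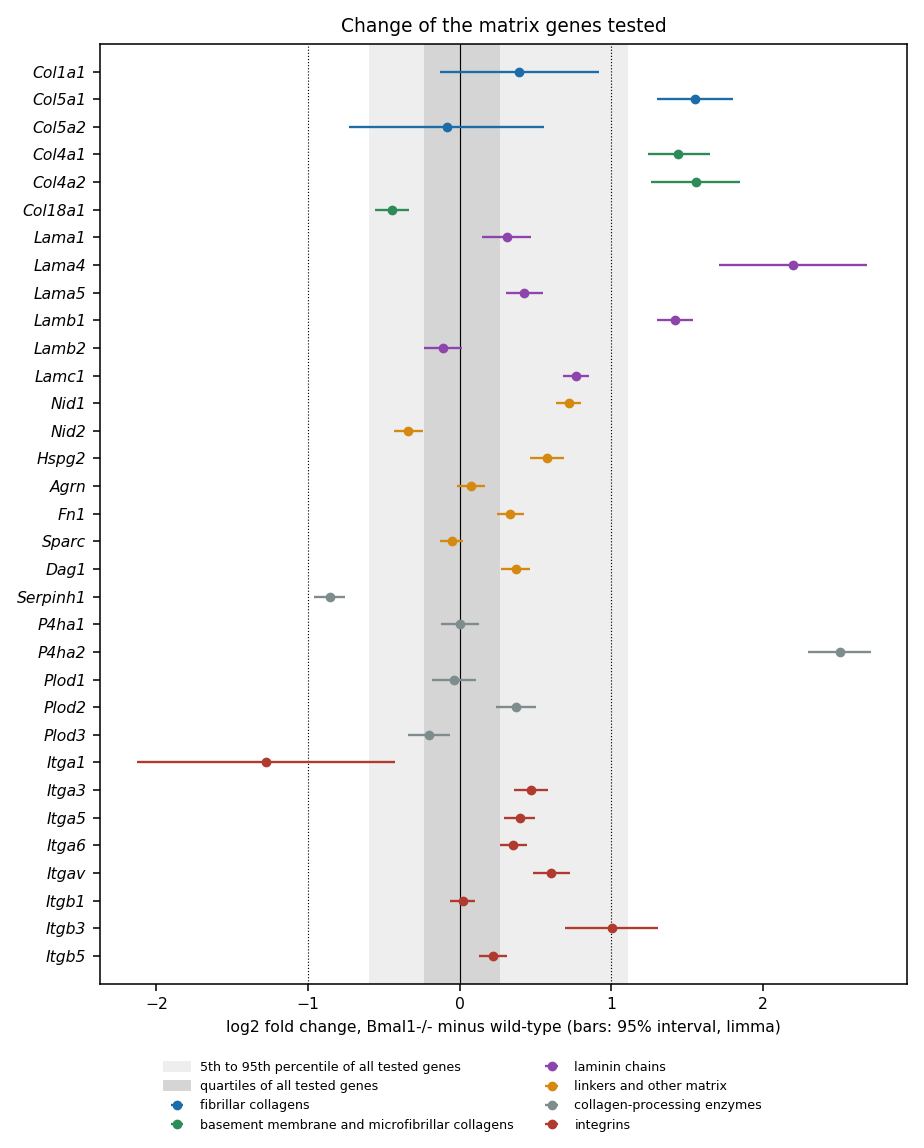
Log2FC of Bmal1-/- over wild-type (horizontal axis) for the 33 matrix genes tested, coloured by group, with 95% intervals from limma. The bands give the quartiles and the 5th to 95th percentile of all 14510 genes tested, and the dotted lines mark 2-fold. P4ha2 (2.51) and Lama4 (2.20) lie farthest to the right, and Itga1 (−1.28) and Serpinh1 (−0.86) farthest to the left.

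The proteins that join or decorate the networks changed less, and none passed 2-fold. Of 7 genes, 4 were higher (57.1%) and 1 was lower (14.3%), where 24% and 28.6% of all genes tested were. Nid1, which encodes nidogen-1 and binds the laminin gamma 1 chain and type IV collagen, rose from 6841 and 6495 to 11156 and 10791 (log2FC 0.72, SE 0.04, adjusted p = 7.7e-12 from limma). Nid1 and Lamc1 rose by like amounts, and the ratio of Nid1 to Lamc1 per kb was 0.757 and 0.779 in wild-type and 0.743 and 0.744 in Bmal1-/- libraries. Its relative Nid2 fell from 5424 and 4981 to 4139 and 4083 (log2FC −0.34, SE 0.04, adjusted p = 2.6e-06 from limma). The nidogens, at 1.02 and 1.05 Nid1 per Nid2 in wild-type libraries, were at 2.18 and 2.13 in Bmal1-/- libraries. Exons of Nid2 overlap a gene on the other strand over 7.9% of their length, and whether reads were counted by strand is not given in the sources used here.

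Hspg2, the gene of perlecan, rose from 3194 and 2750 to 4507 and 4344 (log2FC 0.58, adjusted p = 2.7e-08 from limma). Dag1, which encodes the laminin receptor dystroglycan, rose from 3195 and 3038 to 4130 and 3918 (log2FC 0.37, adjusted p = 9.3e-07). Fn1, the gene of fibronectin, an integrin ligand, had the highest values of the set. Per kb it stood beside Sparc in wild-type cells (3489 and 3548, respectively) and above it in Bmal1-/- cells (4396 and 3419). Its values were 30416 and 27815 in wild-type and 37155 and 36197 in Bmal1-/- libraries (log2FC 0.33, adjusted p = 1.3e-06). Agrn, the gene of the proteoglycan agrin, had 7595 and 6980 against 7873 and 7490 in overlapping groups, and its log2FC of 0.08 (95% interval −0.0152 to 0.169) missed the threshold. It passed with equal library totals (adjusted p = 0.012), with quantile normalization (0.026), with wild-type replicate 1 left out (log2FC 0.14, adjusted p = 0.0054 in limma) and, narrowly, in edgeR (0.050). Sparc, a collagen-binding glycoprotein made in quantity by parietal endoderm, had 11880 and 12009 against 11674 and 11352. The 95% interval of its log2FC, from −0.131 to 0.025, leaves room only for a small change of Sparc in these libraries.

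Of 6 collagen-processing enzymes tested, 2 were higher, 2 were lower and 2 did not pass the test, shares of 33.3% each way that are near those over all genes. P4ha2 (ENSMUSG00000018906, chromosome 11 from 53913597 to 53945167 in mm9) encodes an alpha subunit of collagen prolyl 4-hydroxylase, the enzyme whose product stabilizes the triple helix. It had the largest rise of all 33 genes, from 102 and 112 in wild-type to 631 and 594 in Bmal1-/- libraries, a log2FC of 2.51 (SE 0.10, adjusted p = 2.7e-14 from limma). P4ha1, which encodes the alternative alpha subunit, had 801 and 836 against 821 and 818, and the 95% interval of its log2FC ran from −0.124 to 0.129. P4ha2 per kb was 0.0842 and 0.0880 of P4ha1 in wild-type cells and 0.507 and 0.479 in Bmal1-/- libraries.

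Serpinh1, which encodes the collagen chaperone Hsp47, fell by 0.86 on the log2 scale (SE 0.05, adjusted p = 8.0e-12 from limma). Its values were 2636 and 2649 in wild-type and 1492 and 1424 in Bmal1-/- libraries, the largest fall among the 29 genes with a mean of at least 100, while its client genes Col4a1 and Col4a2 rose. Among the lysyl hydroxylases, which prepare collagen for cross-links and sugar attachment, Plod2 rose from 682 and 743 to 894 and 948 (log2FC 0.37, adjusted p = 6.7e-05). Plod1 had 676 and 615 against 630 and 627 in overlapping groups (log2FC −0.04, 95% interval −0.182 to 0.107). Plod3 had 737 and 771 against 685 and 627 (log2FC −0.20, adjusted p = 0.016), but the call was lost in 7 of the 16 alternatives, with adjusted p-values from 0.052 with quantile normalization to 0.20 in DESeq2 and 0.21 with Bmal1-/- replicate 2 left out. Leaving out wild-type replicate 2 gave 0.061. Exons of the Plod3 gene overlap Znhit1 on the opposite strand over 11.7% of their length. Lox, a secreted cross-linking oxidase, had at most 1 read per library, and its relative Loxl2 had 4 to 11 reads, so that neither was tested.

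**Figure D3:**
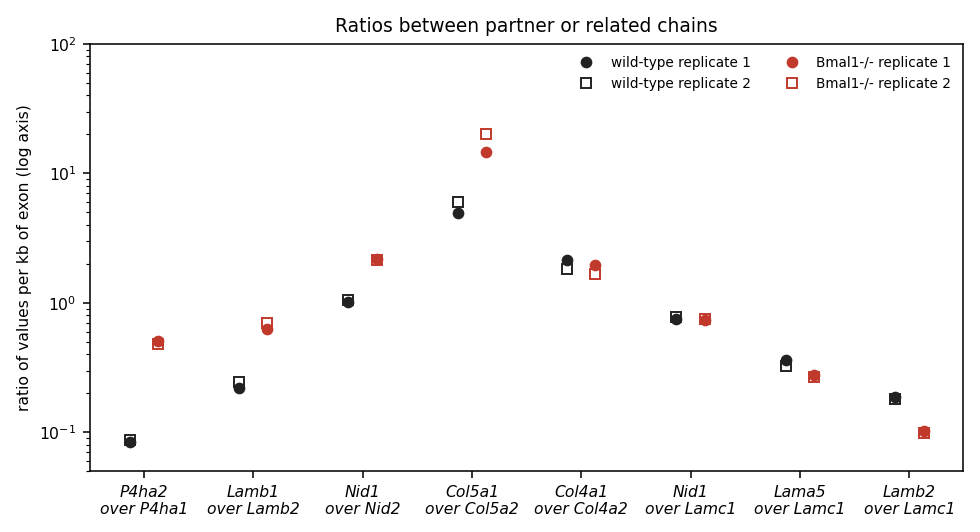
Ratio of the values per kb of exon between related or partner chains (vertical axis, logarithmic) in each of the 2 wild-type (black) and 2 Bmal1-/- (red) libraries. The ratio of P4ha2 to P4ha1 rose from 0.0842 and 0.0880 to 0.507 and 0.479, whereas Nid1 over Lamc1 stayed between 0.743 and 0.779 and Col4a1 over Col4a2 overlapped between genotypes.

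Integrins are receptors of an alpha and a beta chain, and 6 of the 8 genes were higher (75%, beside 24% of all genes tested). The 1 lower gene made 12.5%, beside 28.6% of all genes tested. Itgb1, the beta chain shared by most matrix-binding integrins, was the most abundant per kb and had 5658 and 5544 in wild-type and 5541 and 5812 in Bmal1-/- libraries. Its log2FC was 0.02, with a 95% interval from −0.0665 to 0.104. Itga3, Itga5 and Itga6, which encode alpha chains that pair with Itgb1, rose, whereas Itga1, given below, fell. Itga6, of the laminin receptor, rose from 2550 and 2582 to 3272 and 3285 (log2FC 0.35, adjusted p = 1.0e-06 from limma). Itga5, of the fibronectin receptor, rose from 1595 and 1641 to 2153 and 2105 (log2FC 0.40, adjusted p = 9.2e-07), and Itga3, of another laminin receptor, from 1072 and 1022 to 1464 and 1441 (log2FC 0.47, adjusted p = 4.1e-07). Per kb, Itga6 stood at 0.204 and 0.211 of Itgb1 in wild-type and 0.267 and 0.256 in Bmal1-/- libraries.

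The chains of the alpha v integrins, which bind fibronectin and vitronectin, rose as well. Itgav rose from 1160 and 1034 to 1624 and 1710 (log2FC 0.61, adjusted p = 4.2e-08 from limma) and Itgb5 from 2407 and 2401 to 2847 and 2751 (log2FC 0.22, adjusted p = 3.6e-04). Itgb3, a scarcer beta partner of Itgav, rose from 69.5 and 82.9 to 146 and 161. Its log2FC of 1.00 (SE 0.15, adjusted p = 9.7e-06) lay at the 2-fold limit and was under it in 4 of the alternatives. Itga1, of a collagen receptor, was the only integrin gene that fell, from 15.8 and 21.2 to 5.64 and 8.58, which are 15 and 20 reads against 6 and 9. The log2FC was −1.28 (SE 0.41, adjusted p = 0.012), and the adjusted p was 0.14 in DESeq2, 0.083 when wild-type replicate 2 was left out and 0.090 when Bmal1-/- replicate 1 was. Itga1 passed the filter on low values only through its wild-type level.

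The promoters of these genes were read from RefSeq (GRCm38.p6) as the 250 bases before each start, with 34 promoters of 29 of the 41 genes in the table. They were searched on both strands for the E-box CACGTG, to which Bmal1 binds with Clock, and for its variant CACGTT. None of the 34 held either motif, where 6.02% and 3.85% of all 32851 promoters did. No match says only that these letters are not in these windows. Lama4 and Itgb3, both higher past 2-fold, and Lama1, Lamc1 and Fn1 had no promoter to search. The GC box GGGCGG was in 70.6% of the 34 promoters, beside 32.7% of all promoters, and the TATA box TATAAA in 5.88%, beside 12.4%. The median GC content was 62.8%, beside 52.4% for all promoters. The sequences of Col5a1 and P4ha2, which rose more than 2-fold, and of Serpinh1, which fell, are shown 5′ to 3′ on the strand of the gene and end at its start, because they stand for both directions of change and no other gene lies over them. They are chr2:27886175-27886424 on the plus strand for Col5a1, chr11:54100674-54100923 on the plus strand for P4ha2 and chr7:99353240-99353489 on the minus strand for Serpinh1. Capitals mark GGGCGG or its complement CCGCCC.

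Col5a1 promoter: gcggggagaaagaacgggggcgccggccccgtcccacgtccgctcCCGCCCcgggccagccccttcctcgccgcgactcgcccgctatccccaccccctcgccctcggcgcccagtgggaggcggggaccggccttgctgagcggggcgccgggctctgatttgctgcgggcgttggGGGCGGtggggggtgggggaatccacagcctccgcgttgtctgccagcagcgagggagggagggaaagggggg
P4ha2 promoter: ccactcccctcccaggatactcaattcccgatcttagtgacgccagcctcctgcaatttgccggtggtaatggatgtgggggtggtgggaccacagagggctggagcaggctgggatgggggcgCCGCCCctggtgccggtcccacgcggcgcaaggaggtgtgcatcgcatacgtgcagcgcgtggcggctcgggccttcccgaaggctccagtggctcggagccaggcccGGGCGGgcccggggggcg
Serpinh1 promoter: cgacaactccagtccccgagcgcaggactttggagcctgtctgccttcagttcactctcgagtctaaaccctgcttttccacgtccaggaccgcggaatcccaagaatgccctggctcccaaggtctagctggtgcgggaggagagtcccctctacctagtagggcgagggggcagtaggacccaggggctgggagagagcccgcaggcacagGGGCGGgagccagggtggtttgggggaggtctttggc

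The GC box was found 2 times each before Col5a1 and P4ha2 and 1 time before Serpinh1, so that the motif was present before genes that rose and a gene that fell.

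A wider set of 256 matrix genes in 7 lists, picked by hand with no gene in common with the 41, was examined in the same fit. Of the 171 tested, 70 were higher (40.9%) and 37 were lower (21.6%), with a median log2FC of 0.12. Over all genes tested, 24% were higher and 28.6% lower. Among other laminins, netrins and basement membrane proteins 7 of 11 were higher (63.6%) and 2 lower (18.2%), with a median of 0.40. Hmcn1, the gene of the basement membrane protein hemicentin-1 (8.43 and 11.7 against 30.1 and 39.1), and Pxdn, whose product peroxidasin cross-links type IV collagen (48.5 and 56.3 against 132 and 126), rose more than 2-fold, as did Tinagl1 (log2FC 1.14) and Egfl6 (1.01). Hmcn1 had a log2FC of 1.69, with an adjusted p of 2.1e-04 from limma, and Pxdn 1.28, with 1.6e-06.

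Other collagens had 5 of 13 higher (38.5%) and 1 lower (7.69%), beside 24% and 28.6% of all genes tested. The transmembrane collagens Col23a1 (log2FC 1.52) and Col13a1 (1.13) and Col9a2 (1.08) had the largest log2FC values of the called genes. Col23a1 rested on few reads, 3 and 11 in wild-type and 22 and 20 in Bmal1-/- libraries, and passed the filter on low values only through its Bmal1-/- level. Of the proteoglycans and glycoproteins 19 of 36 were higher (52.8%) and 7 lower (19.4%). Mfap4 (1.84), Fbln5 (1.79) and Acan (1.49) were at the top and the cell-surface proteoglycan Gpc3 (−1.09), Efemp1 (−1.03) and Thbs3 (−1.01) at the bottom. Matrix proteases and inhibitors had 14 of 32 higher (43.8%) and 6 lower (18.8%). Of these, 2 and 1 were past 2-fold, where 5.75% and 1.45% of all genes tested were. There, Hpse, which cleaves heparan sulfate (1.03), and Mmp2, a gelatinase (1.00), rose.

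Of the other collagen-processing enzymes, 7 of 23 were higher and 7 lower, or 30.4% each, near the 24% and 28.6% of all genes tested. Glt25d2 (also named Colgalt2), which adds galactose to hydroxylysine in collagen, had 29.5 and 34.0 in wild-type and 410 and 422 in Bmal1-/- libraries, a log2FC of 3.67 (SE 0.14, adjusted p = 1.9e-14 from limma). Adamts2, a procollagen N-proteinase, rose from 14.7 and 9.56 to 58.2 and 56.3 (log2FC 2.18), and the cross-linking oxidase Loxl3 had 1.31. The related oxidase Loxl4 fell from 89.5 and 71.2 to 20.7 and 27.7 (log2FC −1.70, adjusted p = 3.1e-06).

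Other integrins and matrix receptors had 5 of 21 higher (23.8%) and 4 lower (19.0%), beside 24% and 28.6% of all genes tested. The collagen receptor kinase Ddr2 was the one gene there past 2-fold, from 376 and 346 to 1994 and 1999, a log2FC of 2.46 (SE 0.06, adjusted p = 4.0e-17 from limma). The cytoplasmic integrin adhesion complex had 13 of 35 genes higher (37.1%), 10 lower (28.6%) and none past 2-fold, with a median of 0.07.

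**Figure D4:**
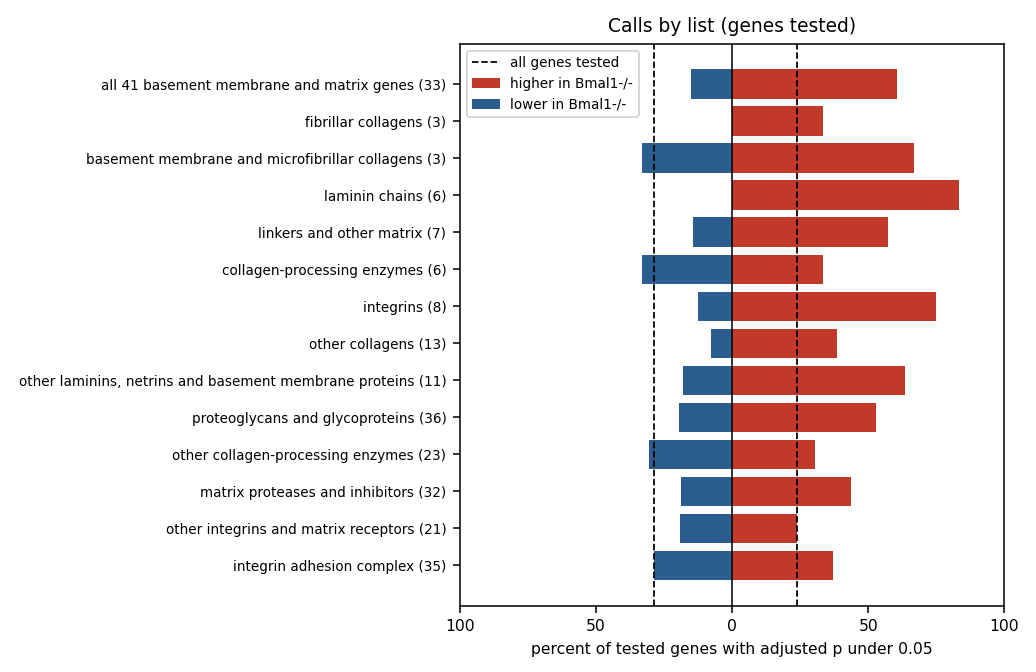
Percent of the tested genes of each list that were higher (red, to the right) or lower (blue, to the left) in Bmal1-/- libraries at an adjusted p-value under 0.05, with the number of genes tested in brackets. Dashed lines give the shares over all genes tested, 24% higher and 28.6% lower. Laminin chains (83.3% higher) and integrins (75% higher) reach farthest to the right. Most lists extend to both sides, and in each list of processing enzymes the red and blue bars are equally long.

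Markers of other cells that make matrix were measured beside these genes. Of 20 primitive and parietal endoderm markers outside the set, 14 were tested, of which 8 were higher (57.1%) and 1 was lower (7.14%). Over all genes tested, 24% were higher and 28.6% lower, and among the matrix genes 60.6% were higher and 15.2% lower. Their summed value was 907 and 797 in wild-type and 1369 and 1404 in Bmal1-/- libraries. Most of this difference came from Cited1 (159 and 157 against 411 and 411) and Lrp2 (134 and 99.9 against 257 and 245). Cited1 (log2FC 1.37), Snai1 (1.28), Sox17 (1.27) and Lrp2 (1.11) rose, and Sox7 fell by 2.41, with 44 and 49 reads in wild-type and 6 and 13 in Bmal1-/- libraries, whose mean value was under the filter limit. The defining factor Gata6, too scarce to be tested, was at 6.32 and 6.37 in wild-type and 0 and 2.86 in Bmal1-/- libraries. Foxa2, also not tested, lay between 2.82 and 6.32, and Pdgfra was between 22.3 and 32.7 in overlapping groups. Of 20 fibroblast and mesenchyme markers, Dcn, Lum, Prrx1 and Cav1 were listed at 0 in all libraries. Dcn, Lum, Postn, Fbn1 and Col6a3 are themselves matrix genes of the wider lists, so these markers are not separate from matrix. Of these, Fbn1 was called higher, from 84.3 and 70.1 to 162 and 160. Among the 10 tested, 6 were higher (60%), such as Pdgfrb (1.48) and Prrx2 (1.30). Vim, the 1 gene called lower (10%), fell from 3626 and 3458 to 1117 and 1106. The summed value of these markers was 4034 and 3862 in wild-type and 1894 and 1920 in Bmal1-/- libraries, and without Vim it was 408 and 405 in wild-type and 777 and 814 in Bmal1-/- libraries. The part of such cells in the values of the matrix genes was not tested.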

How the data were processed

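mRNA-seq libraries (TruSeq Stranded) of 2 wild-type and 2 Bmal1-/- cultures were examined, grouped by the labels. The authors aligned reads to mm9 with STAR (2.5.2b per the labels), counted them per gene and scaled them by TMM in NOISeq; the deposited signal is this normalized value. The counter and annotation are not given in the sources used here. Every value was a whole multiple of 1 read (tolerance 0.01), so whole reads were recovered for 100% of values. IDs were named with GENCODE vM1 for NCBIM37 (mm9), and exonic length is the union of exons.

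Log2(value + 1) was tested with limma 3.58.1 (R 4.3.3; lmFit, eBayes with trend) without covariates, where the mean reached 10. The methods name DESeq2, which needs reads, so DESeq2 1.42.0 and edgeR 4.0.16 on recovered reads served as alternatives. Every matrix gene is named, and of the wider lists up to the 3 highest and 3 lowest genes past 2-fold each; Egfl6 and the markers named lie outside this rule and were picked after values were seen. A gene that the rule would name among the matrix proteases and inhibitors is counted but not reported here. The members, lists and ratios were chosen with earlier results of these data known. Of all symbols in the lists, 4 were not in the table and 2 had 2 IDs and were left out. The fits were tested on simulated reads in which 200 of 14510 genes changed, each by 2-fold or more. There limma recovered 181 of the 200 with 10 false calls. Smaller changes, and a share of changed genes as large as the share called here, were not simulated. Figures used matplotlib 3.10.9.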

Additional observations from a re-analysis of the deposited data

How the results depend on the processing

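Over 16 alternatives, the number of matrix genes called higher lay between 18 and 21, of which at least 18 were among the 20, and their median log2 fold change between 0.30 and 0.43. Of the 25 genes called, 21 kept their call and direction under every alternative in which they were tested, and none changed sign. The number past 2-fold and higher was 6 or 7; Itgb3 was under 2-fold with a pseudocount of 10, with quantile normalization, without wild-type replicate 1 and also without Bmal1-/- replicate 2, and Lama4 was left out by a mean of at least 100. The number called lower was 3 with no filter on low values and 3 in DESeq2, and 4 to 5 with 1 library left out. Itga1, the 1 gene lower past 2-fold, was no longer so (0 genes) with no filter, a mean of at least 100, a pseudocount of 10 or DESeq2, and 0 to 1 genes were with 1 library left out: 0 without wild-type replicate 2, and 0 also without Bmal1-/- replicate 1. In the wider lists 45 genes were higher with a mean of at least 100, which tests fewer genes, and 22 were lower in DESeq2; the cause was not tested. With equal library totals, the median of the processing enzymes turned to 0.043, Sparc to 0.0071 and Plod1 to 0.023, and with quantile normalization Sparc turned to 0.030, none of these a call. With 1 library left out, Col5a2 lay between −0.22 and 0.047, P4ha1 between −0.029 and 0.034, Plod1 between −0.11 and 0.031 and Itgb1 between −0.016 and 0.053. With the replicate number as a block, 20 genes were higher and 5 lower, as without it. This number is given as Exp 1 or Exp 2 in the labels of each genotype. The labels do not say whether libraries with the same number share a batch. Differences between replicates correlated at −0.02 between genotypes. Low counts limit 8 of the 41 genes, which had at most 11 reads in any library.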
